A study of Mus musculus with 4 samples.

Results

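Orexin-producing neurons were taken from single-nucleus RNA profiles of mouse hypothalamus as nuclei with a strong signal of Hcrt, the gene of the orexin precursor. A nucleus was counted as an Hcrt neuron when it held at least 500 genes and at most 5% of mitochondrially encoded molecules, at least 5 unique molecular identifiers (UMIs, one per counted RNA molecule) of Hcrt, Hcrt at 1000 CPM or more (CPM, UMIs of a gene per 1000000 UMIs of the nucleus or class), more Hcrt than Pmch, and at least 3 UMIs of the neuronal transcript Snhg11. Of 56797 barcodes 54422 nuclei passed the general limits, and 133 of them were Hcrt neurons. These nuclei came from 4 libraries of the hypothalamus of wild-type C57BL/6J mice, conventional by the design text and SPF by the titles. In 2 of them (vehicle 1 and vehicle 2) the mice had received sterile water with 1% DMSO for 2 weeks from an osmotic pump in the abdominal cavity. In the other two (ImP 3 and ImP 4) the pump gave imidazole propionate (ImP), a product of bacterial histidine breakdown, at 350 µg per day. The titles call all of them baseline samples. Age, sex and the number of animals behind a library are not given in the labels. The p-values below take libraries as replicates, and the spread between libraries may be technical. The groups held 26 and 27 Hcrt neurons in vehicle and 34 and 46 in ImP. In this order, vehicle 1, vehicle 2, ImP 3 and ImP 4, all values by library are given below.

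Orexin neurons are a small group of cells of the lateral hypothalamus. They cleave the Hcrt precursor into the peptides orexin A and orexin B, which act on the receptors encoded by Hcrtr1 and Hcrtr2, and they are best known for holding the waking state, since their loss causes narcolepsy. They lie among neurons that make melanin-concentrating hormone (MCH) from the Pmch precursor, and both groups project widely through the brain and take part in arousal, feeding and stress.

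The upstream sequences of both peptide genes are shown because Hcrt and Pmch define the 2 classes compared, and because the transcription factor genes Lhx9 and Rfx4 were among the genes that rose most in Hcrt neurons. Each sequence is the 250 bases before the RefSeq start of the gene in build GRCm38.p6, read 5′ to 3′ on the strand of the gene. The expression files were made on GRCm39. Capitals mark the letters TAAT on either strand, a short core that many homeodomain proteins read, and TATAA on the strand of the gene.
Hcrt (chr11:100762932-100763181, minus strand): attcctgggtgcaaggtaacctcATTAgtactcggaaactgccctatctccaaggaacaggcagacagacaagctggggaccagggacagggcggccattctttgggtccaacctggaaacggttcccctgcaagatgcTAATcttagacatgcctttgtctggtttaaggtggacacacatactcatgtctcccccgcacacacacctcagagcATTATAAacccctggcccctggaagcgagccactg
Pmch (chr10:88090822-88091071, plus strand): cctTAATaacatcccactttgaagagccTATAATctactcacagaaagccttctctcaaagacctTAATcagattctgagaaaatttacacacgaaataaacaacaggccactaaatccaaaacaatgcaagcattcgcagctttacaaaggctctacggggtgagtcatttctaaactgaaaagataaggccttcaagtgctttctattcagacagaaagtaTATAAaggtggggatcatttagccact

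In the Hcrt window TAAT began 227, 111 and 35 bases before the start, and TATAA 33 bases before it, where it overlaps the last TAAT match. In the Pmch window TAAT lay 247, 220 and 185 bases before the start, and TATAA 222 and 27 bases before it, the first overlapping a TAAT match. Over 32817 mouse windows of the same length, 54.9% held TAAT on either strand and 16% held TATAA on the strand of the gene. The longer core TAATTA, held by 4.85% of windows, and the letters GTTGCC, part of the X-box read by RFX factors, held by 10.4%, both searched on either strand, were in neither window. These matches describe letters in the windows and nothing about binding.

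Hcrt neurons were deeper than other neurons and held a clear Hcrt signal. Their Hcrt count per nucleus had a median of 24.5, 22, 26 and 18 UMIs by library, and it ran from 5 to 70 over all members. Their level of Hcrt had a median of 2757, 3560, 4410 and 3806 CPM of the nucleus. Since Hcrt, Pmch and Snhg11 chose the members, these values describe the rule and carry no test. The total UMI count of an Hcrt neuron had a median of 6669, 5623, 5171 and 4037, against 4566, 3839, 3497 and 3388 in other neurons of the same libraries. MCH neurons, taken by a like rule further on, had medians of 5373, 4729, 3944 and 4064, also above other neurons. A limit on the UMIs of a single gene can favour deep nuclei, and its part here was not tested. Both ImP libraries were the shallower ones in Hcrt neurons and in other neurons. Members held 0 to 4 Pmch UMIs, and none of the 133 held 0.5% or more of glial UMIs (19 marker genes). No barcode was an Hcrt neuron in more than 1 library, although 35 to 67 kept barcodes were shared per pair of libraries. Between ImP 3 and ImP 4, 1 Hcrt neuron barcode was also a kept barcode of the other library. No doublet caller was run. The plot of Hcrt and total UMIs shows each nucleus.

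**Figure D1:**
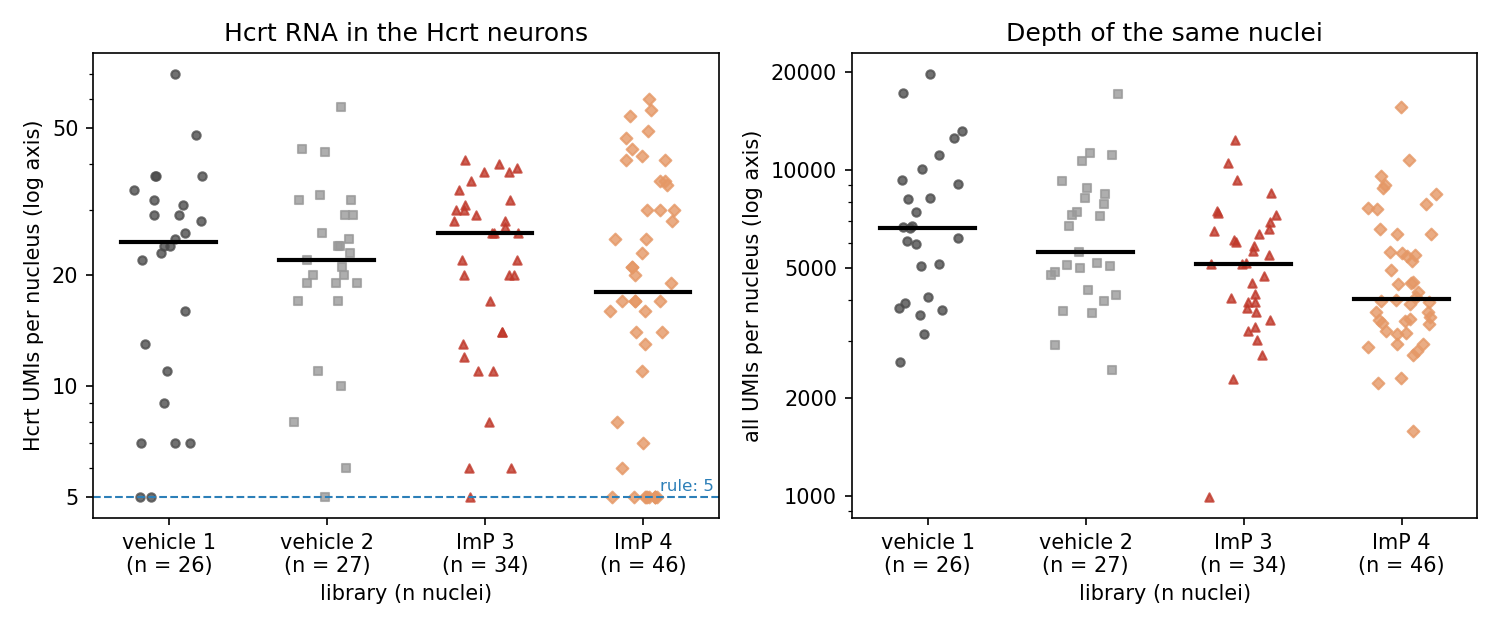
Hcrt UMIs (left) and all UMIs (right) of each of the 133 Hcrt neurons, by library, on log axes; points are nuclei, black bars are medians and the dashed line is the limit of 5 Hcrt UMIs. Medians of Hcrt lie between 18 and 26 UMIs, while the median of total UMIs is highest in vehicle 1, at 6669, and lowest in ImP 4, at 4037.

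Near the limits of the rule the class was not sharply bounded. Exactly 5 Hcrt UMIs were found in 14 members (2, 1, 1 and 10 by library), and 32 nuclei missed the rule with 4 Hcrt UMIs (2, 5, 9 and 16). The Hcrt level failed in 4 nuclei, up to 974 CPM, and 17 members lay between 1000 and 1500 CPM. Another 10 nuclei failed by Snhg11 and 1 by Pmch alone. Hcrt RNA also lay outside these nuclei. Free RNA, orexin neurons that missed the limits and doublets were not told apart there. Oligodendrocyte-rich nuclei, which should lack Hcrt, carried 0.259, 0.187, 0.402 and 0.413 Hcrt UMIs per nucleus at median depths of 1317, 1167, 1225 and 1180 UMIs. This mean was higher in both ImP libraries than in both vehicle libraries. A single such nucleus of vehicle 1 held 13 Hcrt UMIs, and those of the other libraries at most 2, 4 and 4.

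Members with few Hcrt UMIs carried less of Rfx4, Lhx9, Pcsk1 and Rgs6, genes that set the class apart in the comparisons further on. Of 107 members with 10 or more Hcrt UMIs, 89.7% held Rfx4 and 86.0% Pcsk1. The 26 members with 5 to 9 Hcrt UMIs held Rfx4 in 38.5% and Pcsk1 in 34.6%. Their median depth was 3619 UMIs against 5652, and its part in these shares was not tested. The summed levels were lower too, in groups divided by a value of the rule and so with no test. Rfx4 lay at 741 CPM in the first group and 221 CPM in the second, Pcsk1 at 663 and 126 CPM, and Rgs6 at 1850 and 610 CPM. Lhx9 was found in 43.9% of the first group and in 0 of 26 of the second, which allows a share of nuclei with a UMI of up to 11.5% and sets no limit on the nuclei that express it. In the 32 nuclei just outside the rule, with 4 Hcrt UMIs, Rfx4 stood at 129 CPM and Pcsk1 at 25.7 CPM. Of the 26 low members 13 came from ImP 4.

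**Figure D2:**
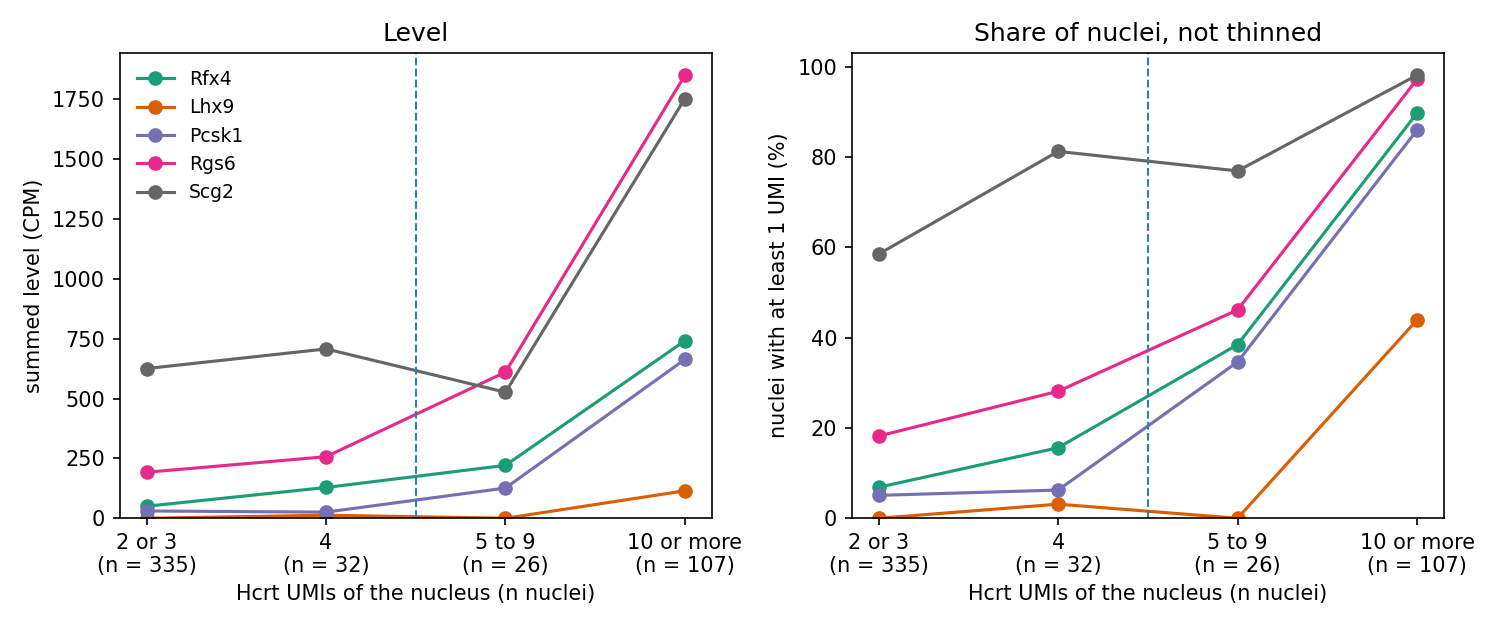
Summed level in CPM (left) and share of nuclei with a UMI, not thinned (right), of Rfx4, Lhx9, Pcsk1, Rgs6 and Scg2 by Hcrt UMIs per nucleus: 2 or 3 (335 nuclei), 4 (32), 5 to 9 (26) and 10 or more (107); the dashed line is the limit of the rule. Rfx4 lies at 50.3 CPM in the first class and 741 CPM in the last.

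With every member thinned to 2000 UMIs, which 131 of 133 could supply, 61.8% held Rfx4 (80.2% without thinning) and 19.8% held Lhx9 (35.9%). At least 1 of Rfx4, Lhx9, Pcsk1 and Scg2 was found in 95.4% (97.7%). Among other neurons thinned in the same way, 1000 per library, Rfx4 was found in 3.95% (7.0%) and Lhx9 in 0.5% (1.08%). Neither was found in 77 oligodendrocyte-rich nuclei of that depth, which allows a share of nuclei with a UMI of up to 3.90% and sets no limit on the nuclei that express it.

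Compared with 41521 other neurons (Snhg11 at 3 UMIs or more, under 5 Hcrt UMIs, under 0.5% glial UMIs), Hcrt neurons had more of the transcription factor genes Rfx4 and Lhx9, the phosphodiesterase gene Pde3a and the prohormone convertase gene Pcsk1, and less of Unc13c, Adarb2 and the GABA synthesis gene Gad2. UMIs were summed per library and class and tested with edgeR's quasi-likelihood test with the library as a block and Benjamini-Hochberg adjustment at 0.05. In this fit the spread of a gene between libraries was drawn almost wholly from all genes together. A very small p therefore does not show that the 4 libraries agreed. Of 18291 genes tested, 2050 passed (11.2%), of which 809 were higher (4.42% of those tested) and 1241 lower (6.78%), while 20.7% had a raw p below 0.05. Counts of calls in the gene lists below are to be read against these shares. Of the higher and lower genes 431 and 633 passed whichever library was left out. A share of the lower calls, 63 genes, had no UMI in any Hcrt neuron. The median log2 fold change of all genes tested was -0.24, and it was -0.14 with other size factors (RLE) and -0.08 with DESeq2, so that list medians below are to be read against it. The split of the calls moved with this scaling: 39.5% were higher in the reported fit, 51.5% with RLE and 59.3% with DESeq2. Sums of the other neurons were far deeper than those of 133 nuclei, and genes low in Hcrt neurons were counted with little precision.

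Among the 12 genes with the largest rise, 3 encode regulators of transcription. Rfx4, a winged-helix factor of the RFX family, lay at 822, 702, 759 and 477 CPM in Hcrt neurons and between 15.3 and 19.8 CPM in other neurons. Its log2 fold change was 5.20 (SE 0.12, adjusted p at most 1.15e-12 over edgeR and its 15 alternatives), and each library of Hcrt neurons lay above each of other neurons. Lhx9, a LIM-homeodomain factor known from the development of orexin neurons, was measured at 105, 87.7, 80.8 and 125 CPM against 2.34 to 3.25 CPM (log2 5.12, SE 0.30, and 3.66 with the other neurons thinned to equal depth). Vgll2, a cofactor of TEAD factors, lay at 50.1, 38.4, 59.2 and 98.8 CPM against 1.70 to 2.42 CPM (4.93, SE 0.37). For these genes the 4 libraries of Hcrt neurons and the 4 of other neurons did not overlap. Under a looser condition, higher than other neurons of the same library in each of the 4 libraries, lay 8.59% of all genes. The share of all genes without overlap was not computed.

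The rest of the 12 included enzymes and secreted or surface proteins. Pde3a, a phosphodiesterase that breaks down cyclic AMP, was found at 286, 608, 474 and 623 CPM against 22.3 to 29.0 CPM (log2 4.27, SE 0.13). Ros1, a receptor tyrosine kinase, lay at 190, 197, 215 and 159 CPM against 6.69 to 8.89 CPM (4.56, SE 0.22). C1ql3, a secreted C1q-like protein of synapses, stood at 220, 323, 248 and 305 CPM against 14.4 to 19.1 CPM (3.99, SE 0.17). In each of these 3 genes the lowest library of Hcrt neurons lay above the highest of other neurons. Hmcn1, an extracellular matrix protein, rose by 4.53 (SE 0.16), and Gm20631, which overlaps it on the other strand, by 4.5. Whether the counting used strand is not stated in the sources used here, so reads of these 2 genes may not have been told apart. The same holds for C030034L19Rik (4.5), which overlaps Zfp704. On their own strand Ros1 overlaps Gm20630, and Pde3a overlaps Gm10400 and Gm43958. Csta2 (3.77), of a family of similar cysteine protease inhibitors, and the unnamed transcripts Gm13849 (4.93) and Gm30524 (4.63) completed the set.

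The genes with the largest fall were low in Hcrt neurons. Unc13c, a priming factor of synaptic vesicles, lay at 20.0, 16.4, 26.9 and 8.59 CPM against 178 to 222 CPM in other neurons (log2 -3.63, SE 0.26). Adarb2, a brain RNA-binding protein of the editing enzyme family that overlaps several other transcripts, lay at 55.1, 65.8, 75.4 and 34.4 CPM against 549 to 615 CPM (-3.44, SE 0.17). All Hcrt neuron libraries lay below all libraries of other neurons for both genes. Under the looser condition, lower than other neurons of the same library in each library, lay 27.9% of all genes. Tafa2, a secreted chemokine-like protein, was less even, at 10.0, 16.4, 26.9 and 90.2 CPM against 309 to 324 CPM (-3.12, SE 0.20). The others were Sntg2 (-4.03), the transcription factor Sox6 (-3.99), Necab1 (-3.88), Angpt1 (-3.80), Sfta3-ps (-3.52), Rtl4 (-3.27), Dach1 (-3.17) and the potassium channel gene Kcnt2 (-3.14). The named genes of both directions passed the threshold in each alternative fit that tested them, 13 to 15 per gene, with adjusted p of at most 0.0144 (Dach1).

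**Figure D3:**
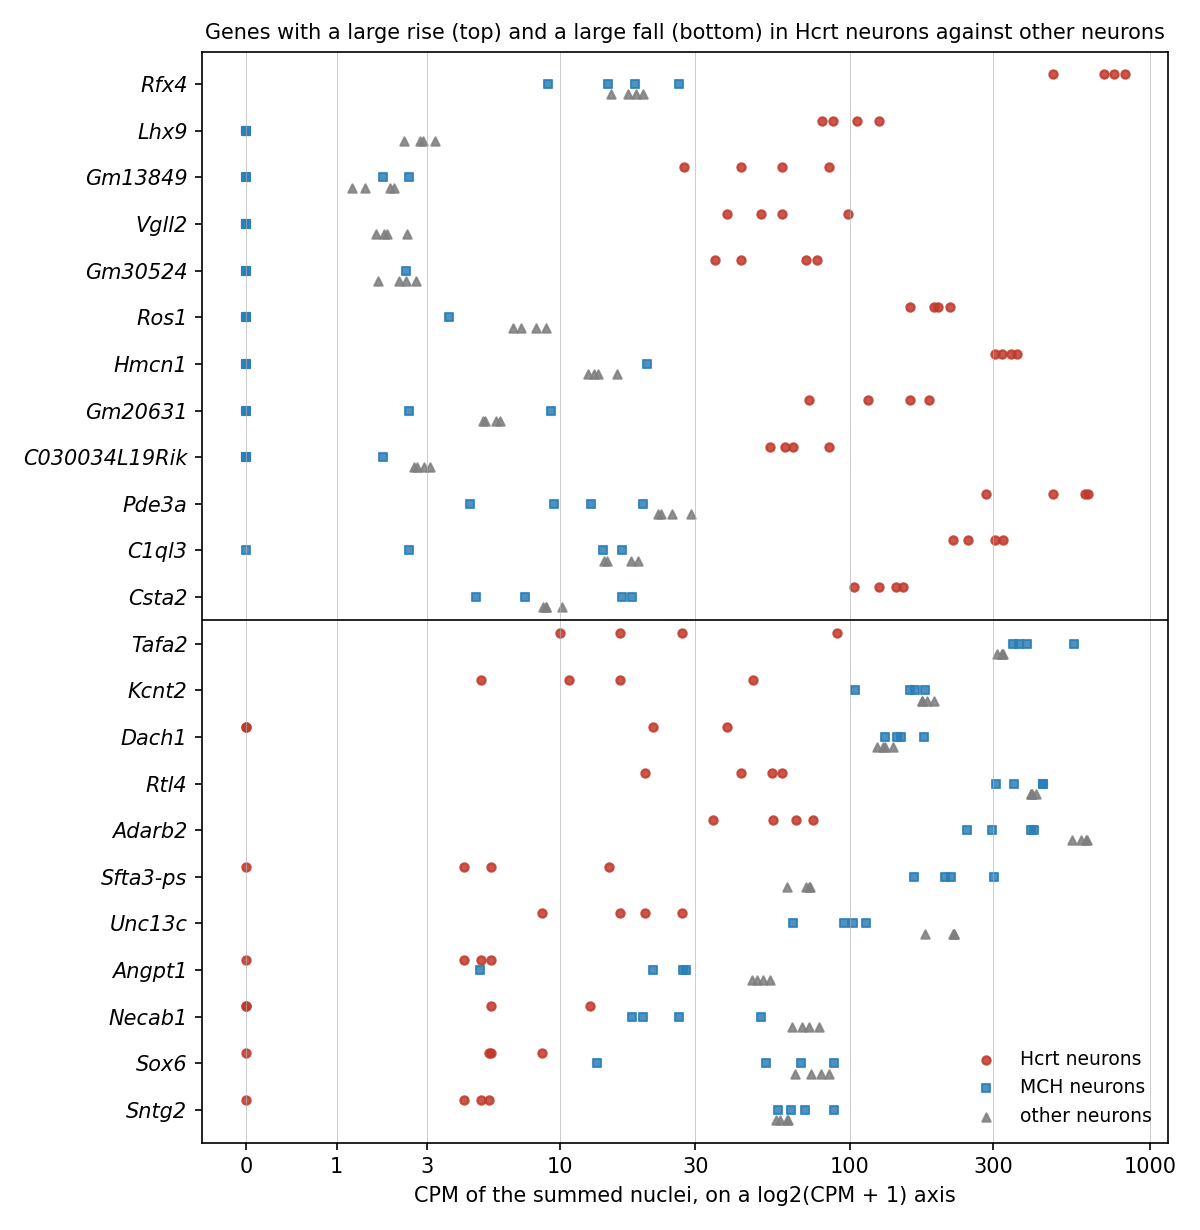
Level in each library (points, log2 of CPM plus 1) of the 12 genes with the largest rise and of 11 with a large fall in Hcrt neurons against other neurons, shown for Hcrt, MCH and other neurons. MCH neurons were not removed from other neurons. Rfx4 lies at 477 to 822 CPM in Hcrt neurons and below 30 CPM in both other classes.

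Of 12 genes known from other work on orexin neurons, all were tested, 7 rose and 1 fell, and the median log2 fold change was 1.61 against -0.24 for all genes. The list holds Lhx9 and Scg2, and its members were chosen from such work, with earlier results of these data known. Plagl1, a zinc finger factor, lay at 266, 121, 269 and 236 CPM against 22.6 to 34.9 CPM (log2 3.02, SE 0.17, adjusted p = 3.92e-66 by edgeR). Pdyn, the precursor of dynorphin, which orexin neurons release beside orexin, lay at 60.1, 27.4, 37.7 and 25.8 CPM against 4.5 to 6.99 CPM (2.76, SE 0.41). Nptx2, a pentraxin that gathers glutamate receptors, lay at 25.1, 54.8, 10.8 and 43.0 CPM against 4.97 to 7.23 CPM (2.44, SE 0.42). In each of the 3 the classes did not overlap, although Nptx2 and Pdyn rest on 27 and 30 UMIs in all. Dlk1 rose by 0.71 (SE 0.18) and lost its call with other neurons thinned to equal depth (adjusted p = 0.105, range 1.94e-05 to 0.105). Nnat rose by 0.63 (SE 0.11) and lost its call without vehicle 1 (0.37, adjusted p = 0.0510, range 6.38e-11 to 0.0510). Qrfp, Igfbp3, Zcchc12 and Slc17a6 did not pass, and Ebf2 (-2.36, with UMIs in 2 libraries) lost its call without vehicle 1 (adjusted p = 0.0872), ImP 3 (0.0540) and ImP 4 (0.0672), with a range of 0.00122 to 0.133 over its alternatives.

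Genes that cut, store and release peptides changed in both directions. Of 20 such genes tested 6 rose and 6 fell, with a median of -0.20. Pcsk1, the first of the convertases that cleave prohormones, lay at 576, 586, 678 and 567 CPM in Hcrt neurons and at 47.6 to 58.2 CPM in other neurons (log2 3.42, SE 0.12). Scg2, a granin of dense-core granules, lay at 1443, 1748, 1421 and 1783 CPM against 342 to 445 CPM (2.03, SE 0.10). Pam, which amidates the ends of peptides such as the orexins, lay at 1072, 1052, 1093 and 975 CPM against 450 to 461 CPM (1.15, SE 0.10). In these genes all libraries of Hcrt neurons were higher and spread little. Ptprn, a granule membrane protein, rose by 1.15 (SE 0.11). The second convertase gene, Pcsk2, lay at 591, 449, 544 and 490 CPM against 413 to 466 CPM and did not pass (0.18, SE 0.11, adjusted p = 0.385 by edgeR). Neither did Cpe (-0.08) or Qpct (-0.35), which modifies the amino end of orexin A. Cadps2, a factor for granule exocytosis, fell by 2.54 (SE 0.19), Chga by 1.11, Spcs2 by 0.82 and Pcsk1n, an inhibitor of Pcsk1, by 0.70 (SE 0.13). The call of Spcs2 was lost without the library block (adjusted p = 0.0793, range 6.06e-05 to 0.0793).

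Genes of GABA synthesis and packaging fell in Hcrt neurons, and the glutamate transporter gene Slc17a6 did not pass the test. Of 10 transmitter genes tested none rose and 4 fell (median -1.76, or -0.93 with genes at 0 at their bound). Slc17a6, which loads glutamate into vesicles, was measured at 135, 121, 102 and 138 CPM against 102 to 108 CPM in other neurons, which include glutamate and GABA cells (log2 0.19, SE 0.17, adjusted p = 0.576 by edgeR). The 2 classes overlapped. Gad2, an enzyme of GABA synthesis, lay at 15, 65.8, 43.1 and 25.8 CPM against 129 to 145 CPM (-1.96, SE 0.23), and Gad1 at 45.1, 0, 32.3 and 4.30 CPM against 54.7 to 58.2 CPM (-1.56, SE 0.32), both below every library of other neurons. Slc32a1, the vesicular GABA transporter, lay at 5.01, 16.4, 21.5 and 30.1 CPM against 38.5 to 47.4 CPM, but its fall of 1.24 was lost without vehicle 1 (adjusted p = 0.0967, range 0.00555 to 0.0967). In members thinned to 2000 UMIs, 21 of 131 held UMIs of a glutamate gene alone, 12 of a GABA gene alone, 5 of both and 93 of neither. Without thinning the counts were 48, 17, 20 and 46.

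Among 27 neuropeptide precursor genes tested, Pdyn rose and 6 fell (median -0.78, or -0.64 with genes at 0 at their bound). Penk, the enkephalin precursor, fell by 3.59 (SE 0.67) and rested on 2 UMIs in Hcrt neurons. Tac1, the substance P precursor, lay at 0, 16.4, 43.1 and 34.4 CPM against 59.2 to 98.5 CPM (log2 -1.80, SE 0.29). Cck (-2.57) lost its call without ImP 3 (adjusted p = 0.145) and ImP 4 (0.179), with a range of 0.0179 to 0.212. Pomc (-1.50) and Avp (-0.69), whose transcripts were also found in glial nuclei, fell, and both calls were lost without the library block (Pomc adjusted p = 0.555, range 3.12e-07 to 0.555, and Avp 0.283, range 5.04e-06 to 0.283). Cartpt, a feeding peptide of MCH neurons, lay at 0, 32.9, 16.2 and 51.6 CPM against 36.6 to 70.5 CPM. Its fall of 1.03 was lost without vehicle 1 (adjusted p = 0.154) and ImP 3 (0.116), range 0.00544 to 0.309. Gal, at 30.1, 65.8, 70.0 and 73.1 CPM, and Nts, at 35.1, 5.48, 16.2 and 90.2 CPM, overlapped with other neurons and did not pass.

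Some receptors for hormones and peptides rose and some fell, while most passed in neither direction. Of 37 tested 6 rose and 8 fell (median -0.96, or -0.68 with genes at 0 at their bound), where 4.42% of all genes rose and 6.78% fell. Of these calls 2 and 2 were kept whichever library was left out. Trhr, the receptor of thyrotropin-releasing hormone, lay at 100, 65.8, 70.0 and 107 CPM against 13.9 to 15.4 CPM (log2 2.53, SE 0.26, adjusted p = 2.43e-20 by edgeR). Igf1r, the receptor of insulin-like growth factor and named here after its values were seen, lay at 220, 280, 409 and 232 CPM against 118 to 141 CPM (1.08, SE 0.13). Both receptors were higher in all libraries of Hcrt neurons. Prlr, the prolactin receptor, lay at 5.01, 27.4, 5.38 and 17.2 CPM against 102 to 120 CPM (-3.08, SE 0.31). Oprm1, the mu opioid receptor, lay at 70.1, 76.7, 26.9 and 21.5 CPM against 98.4 to 111 CPM (-1.19, SE 0.22), with both ImP libraries below both vehicle libraries.

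The other receptor calls rested on few molecules. Crhr2, a receptor of urocortins, rose by 2.56 and was lost without ImP 3 (adjusted p = 0.0808, range 1.77e-04 to 0.0808). The rise of Ntsr1 by 1.88 was lost without vehicle 1 (0.0555) and ImP 3 (0.131), range 0.00156 to 0.131. For Cckar (2.16) the call was lost without each library in turn (adjusted p from 0.0534 to 0.227, without vehicle 2 and vehicle 1), and for Oprk1, the dynorphin receptor (1.02), without vehicle 1 (0.0531), ImP 3 (0.410) and ImP 4 (0.139). Hcrtr2, an orexin receptor, lay at 35.1, 32.9, 5.38 and 21.5 CPM against 45.9 to 54.3 CPM, below in each library. Its fall of 1.11 (SE 0.32, adjusted p = 0.00621 by edgeR) was lost without ImP 3 (0.206) and ImP 4 (0.0504), range 0.00161 to 0.206. Hcrtr1 was at 0, 0, 0 and 4.30 CPM. Lepr, the leptin receptor, at 10.0, 0, 0 and 4.30 CPM (-2.0), lost its call without vehicle 2 (0.193), ImP 3 (0.224) and ImP 4 (0.165), and Tacr1 (-1.68) without vehicle 1 (0.197), ImP 3 (0.105) and ImP 4 (0.0921). Nr3c1, the glucocorticoid receptor, lay at 45.1, 71.3, 64.6 and 73.1 CPM against 94.4 to 101 CPM. Its fall of 0.67 was lost without vehicle 1 (0.178) and ImP 3 (0.0570), range 0.0122 to 0.178. Oprd1 had no UMI in Hcrt neurons, at least 1.95-fold lower than in other neurons by a floor of 3 counts over the class, and its call was lost without each library in turn (adjusted p from 0.0806 to 0.115, without ImP 3 and ImP 4, range 0.0253 to 0.121). Mchr1 (-1.17) and Npy1r (-1.36) did not pass.

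Of 23 receptors of monoamines, acetylcholine and adenosine tested, 2 rose and 7 fell (median -0.87, or -0.59 with genes at 0 at their bound). Htr2c, a serotonin receptor, lay at 1232, 1283, 1604 and 954 CPM in Hcrt neurons and at 394 to 469 CPM in other neurons (log2 1.48, SE 0.10), higher in each library. The other rise, of the adrenergic receptor gene Adra1b (1.32), was lost without ImP 3 (0.67, adjusted p = 0.546, range 2.28e-04 to 0.546). Muscarinic receptor genes fell: Chrm2 lay at 50.1, 32.9, 37.7 and 21.5 CPM against 123 to 146 CPM (-2.0, SE 0.23), and Chrm3 at 70.1, 98.7, 21.5 and 98.8 CPM against 247 to 305 CPM (-1.97, SE 0.18). Neither class overlapped the other in these genes. The serotonin receptor genes Htr2a (-3.15), Htr4 (-2.66) and Htr7 (-2.11) also fell, and Htr7 lost its call with DESeq2 (adjusted p = 0.0579, range 1.28e-12 to 0.0579).

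Receptors of glutamate, GABA and glycine fell more often than they rose. Of 40 tested 5 rose and 19 fell, 16 of the latter whichever library was left out (median -0.60). Gabrb2, a GABA-A receptor subunit, lay at 35.1, 54.8, 21.5 and 103 CPM against 260 to 309 CPM (log2 -2.43, SE 0.19). Grin2a, an NMDA receptor subunit, lay at 85.2, 82.2, 43.1 and 60.2 CPM against 277 to 324 CPM (-2.22, SE 0.18). Both were below the other class in all libraries. Another GABA-A receptor subunit gene, Gabra2, lay at 802, 948, 1071 and 859 CPM against 487 to 507 CPM (0.83, SE 0.11), and the kainate receptor gene Grik4 at 391, 241, 372 and 296 CPM against 144 to 159 CPM (1.05, SE 0.13). Both were higher in all libraries, as were Grm8 (0.83) and the AMPA receptor gene Gria1 (0.40, SE 0.11). Grm4 (-2.50) was lost without vehicle 1 (adjusted p = 0.180), vehicle 2 (0.123) and ImP 3 (0.138), range 0.00140 to 0.180.

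Of 45 genes of excitability channels and exchangers tested, 5 rose and 12 fell (median -0.34, or -0.33 with genes at 0 at their bound). Kcnc2, a fast potassium channel, lay at 1037, 954, 975 and 980 CPM against 418 to 463 CPM (log2 1.14, SE 0.10). Abcc8, the sulfonylurea receptor of ATP-sensitive potassium channels, lay at 40.1, 21.9, 48.5 and 47.3 CPM against 11.8 to 13.5 CPM (1.63, SE 0.35). Both classes were apart in these genes. Kcnma1 rose by 0.43 (SE 0.11), and Kcnd3 by 0.51, lost without ImP 3 (adjusted p = 0.137) and ImP 4 (0.0594), range 2.83e-04 to 0.140. Falls in the list included those of Kcnt2 (-3.14), the cation channel genes Trpc4 (-2.75, SE 0.34) and Trpc5 (-2.33, SE 0.20), and the calcium-activated potassium channel gene Kcnn2 (-2.19, SE 0.20). Trpc5 lay at 30.1, 43.8, 32.3 and 73.1 CPM against 205 to 241 CPM.

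**Figure D4:**
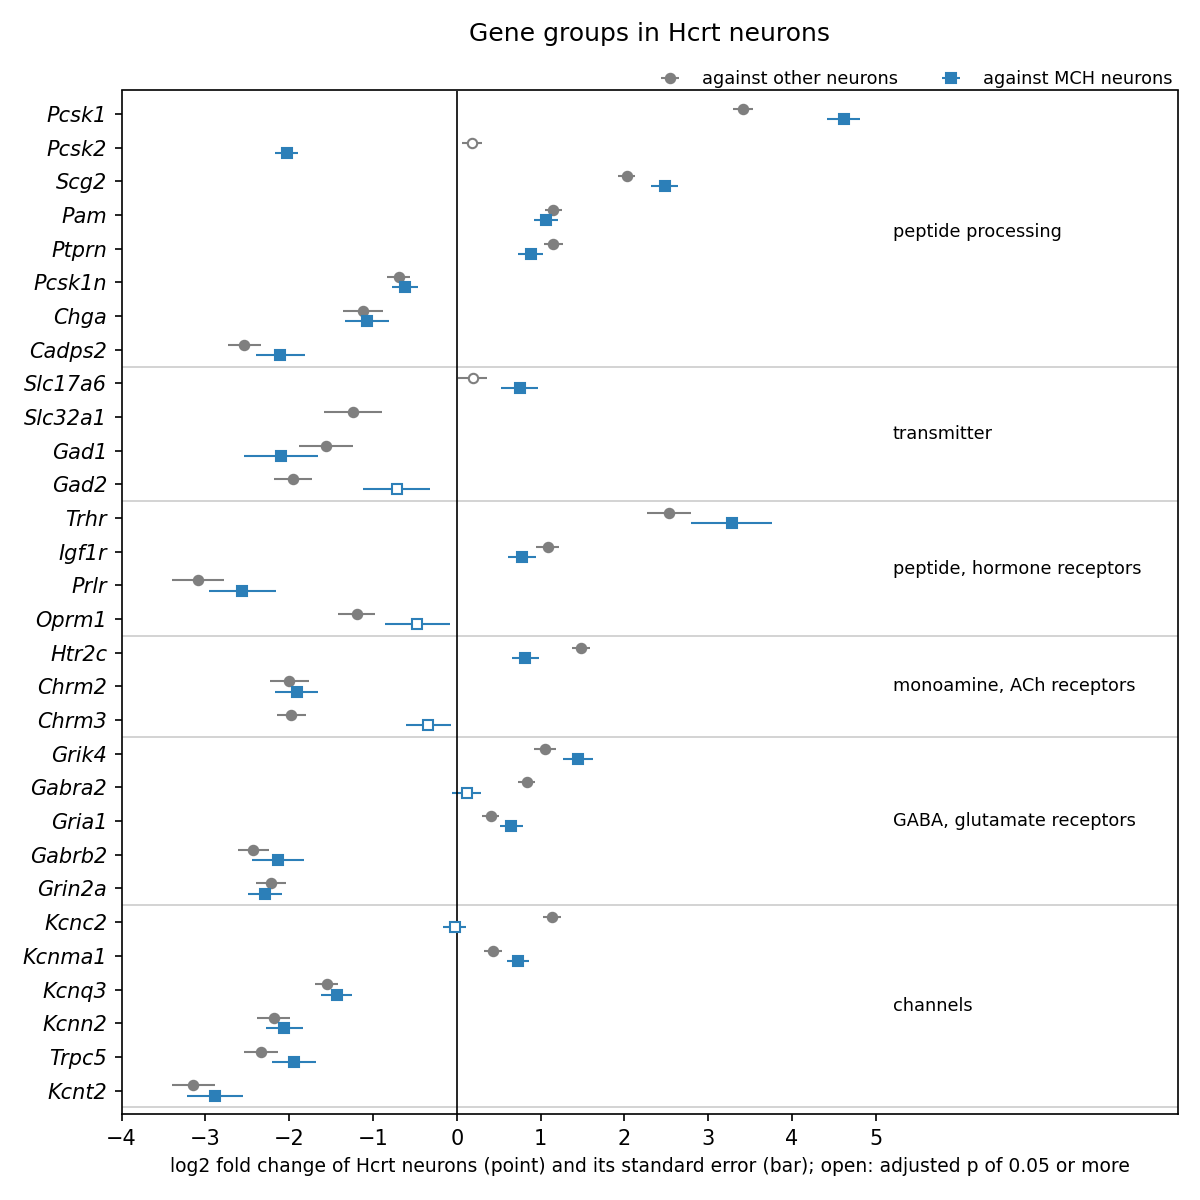
Log2 fold change (with SE) of Hcrt neurons against other neurons and against MCH neurons for genes of peptide processing, transmitters, receptors and channels; open symbols mark an adjusted p of 0.05 or more. Pcsk1 is the highest in both comparisons, at 3.42 and 4.62, while Pcsk2 is level against other neurons and at -2.03 against MCH neurons.

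Of 46 hypothalamic transcription factors tested 6 rose and 19 fell (median -1.59, or -1.13 with genes at 0 at their bound), 4 and 10 of them whichever library was left out. Beside Rfx4 and Lhx9, Foxp2 lay at 451, 290, 425 and 284 CPM against 119 to 162 CPM (log2 1.33, SE 0.13), and Zfhx4 at 461, 307, 398 and 339 CPM against 196 to 208 CPM (0.85, SE 0.12), both of the latter named after their values were seen and higher in all libraries. Nkx2-2 (2.43) was lost without vehicle 1 (1.58, adjusted p = 0.359, range 2.94e-04 to 0.359), and Lhx2 (2.11) without ImP 3 (0.126) and ImP 4 (0.304), range 0.00290 to 0.304. The falls included Ebf3 (-4.37), Sox6 (-3.99), Tcf7l2 (-3.08) and Sim1, a factor of paraventricular neurons (-2.42). Lhx1 and Dlx1 had no UMI in Hcrt neurons, at least 2.59-fold and 2.21-fold lower, and the call of Dlx1 was lost without each library in turn (adjusted p from 0.0526 to 0.0862, without vehicle 2 and ImP 4).

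Immediate early genes, which follow recent activity, were uneven between libraries. Of 12 tested 3 rose, and each of these lost its call without vehicle 1 (list median -1.03, or 0 with genes at 0 at their bound). Nr4a3 lay at 125, 11, 32.3 and 8.59 CPM against 3.97 to 10.4 CPM (log2 2.48, adjusted p = 1.16e-09 by edgeR, and 0.224 without vehicle 1, range 8.08e-11 to 0.224). Fosl2 lay at 55.1, 5.48, 26.9 and 17.2 CPM (1.89, adjusted p = 0.271 without vehicle 1, range 1.10e-04 to 0.271). Fos lay at 75.2, 11, 53.8 and 12.9 CPM against 12.6 to 22.9 CPM (0.92, adjusted p = 0.0481), and was lost without vehicle 1 (0.729) and ImP 3 (0.529), range 0.00379 to 0.729. Vehicle 1 was the highest library in all 3 genes. Of 19 genes of proposed ImP signalling and energy sensing, such as Mtor and the p38 kinases, none rose and 2 fell (median -0.19). Fkbp5, a glucocorticoid-responsive chaperone, lay at 10.0, 5.48, 0 and 38.7 CPM against 41.7 to 77.8 CPM (-1.91, SE 0.36) and was lost without the library block (adjusted p = 0.0771, range 2.38e-06 to 0.0771). Irs1 (-0.95) was lost without vehicle 1 (0.224) and ImP 3 (0.0750), range 0.00285 to 0.224.

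Genes of protein synthesis and respiration tended lower in Hcrt neurons, by amounts that depended on the scaling. Of 80 cytosolic ribosomal protein genes tested none rose and 27 fell (median -0.49), 5 of them whichever library was left out, and the number that fell was 16 with RLE, 3 with DESeq2 and 8 with the other neurons thinned to equal depth. The 77 nuclear genes of the respiratory chain had a median of -0.57 with 20 that fell, and the 13 mitochondrially encoded genes, which the rule limited, a median of -0.45 with 9 that fell. The summed ribosomal genes stood at 3768 to 6205 CPM in Hcrt neurons, 5203 to 8188 CPM in the shallower other neurons and 11452 to 17915 CPM in the still shallower oligodendrocyte-rich nuclei, and the part of depth and free RNA in the difference was not tested.

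Markers of other cell types were low in Hcrt neurons. Oligodendrocyte markers summed to 105 to 314 CPM over 6 genes, against 199 to 344 CPM in other neurons and 11773 to 11827 CPM in the oligodendrocyte-rich nuclei, and astrocyte markers to 10.0 to 120 CPM. Of these 6 and 5 genes none rose, and 1 astrocyte gene, Slc1a3, fell (lost without vehicle 1, adjusted p = 0.259, vehicle 2, 0.0625, and ImP 3, 0.269, range 0.00320 to 0.379). The precursor marker Cspg4, the vascular and fibroblast markers Cldn5, Flt1, Rgs5, Col1a2 and Col3a1, the ependymal marker Ccdc153 and the pituitary markers Lhb and Ghrhr were at 0. Microglia markers summed to 53.8 to 110 CPM and tanycyte and ependymal markers to 10.0 to 48.5 CPM. Pan-neuronal genes were level with other neurons (median -0.02), with Rbfox3 (-1.13) and Syt1 (-0.51) lower. Pituitary markers stood at 10.0, 11, 37.7 and 1478 CPM in Hcrt neurons, and ImP 4, the high one, held them at 4360 CPM in oligodendrocyte-rich nuclei too.

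MCH neurons, the neighbours of Hcrt neurons, were taken by the mirrored rule on Pmch, which gave 60, 41, 90 and 122 nuclei. Pmch was also found at 0.698, 0.587, 0.882 and 1.01 UMIs per oligodendrocyte-rich nucleus, so how many of these nuclei passed on free Pmch was not tested. Against them 940 of 4472 genes tested passed (21%), 470 higher and 470 lower in Hcrt neurons (10.5% each), and 30.6% had a raw p below 0.05. Whichever library was left out, 282 and 310 of the calls held. With a limit of 10 UMIs on both sides 921 of 3623 passed, and DESeq2 called 529 of 4472. The median of all genes was -0.00. The filter on counts could be met by the levels of 1 class alone. A gene low in 1 class was therefore tested only through the class where it was high, and its direction is no test.

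The genes that rose most against MCH neurons included Lhx9, Ros1 and Rfx4, and the signalling genes Rgs6 and Pde10a. Both class comparisons share the sums of Hcrt neurons. Lhx9, Ros1, Rfx4, Stac and Pcsk1 passed the filter on counts only through Hcrt neurons, where they were high. Their direction is therefore no test, and which of the others given by fold alone share this limit was not examined. Lhx9 had no UMI in any MCH neuron, so that it lay at least 53.3-fold higher in Hcrt neurons by the floor of 3 counts over the class. Ros1 was at 0, 0, 0 and 3.71 CPM in MCH neurons (log2 6.76, SE 0.44). Rfx4 lay at 14.9, 9.06, 26.3 and 18.6 CPM there (5.13, SE 0.22), close to its level in other neurons. Rgs6, a brake on G protein signals, lay at 1663, 1628, 1793 and 1723 CPM in Hcrt neurons, 57.0 to 96.5 CPM in MCH neurons and 155 to 181 CPM in other neurons (4.42, SE 0.17). Pde10a, a phosphodiesterase of cyclic AMP and cyclic GMP, lay at 3372, 5026, 4738 and 5028 CPM, 301 to 472 CPM and 534 to 798 CPM in the same order (3.61, SE 0.15). Stac, an adaptor of calcium channels, lay at 210, 263, 183 and 249 CPM against 0 to 13.0 CPM (4.48, SE 0.31). In none of these genes did the 2 classes overlap. Under the looser condition, higher than MCH neurons of the same library in each library, lay 20.5% of the genes. Pde3a (5.19), Hmcn1 (5.50), Gm20631 (4.86), C030034L19Rik (5.95), C1ql3 (4.68) and Pcsk1 (4.62) made up the rest of the 12.

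Of 6 genes known from MCH neurons only 3 were tested. Tacr3 and Cartpt fell in Hcrt neurons, and Scg2, also on the list of orexin neuron genes, rose. Tacr3 and Cartpt passed the filter on counts only through MCH neurons, where they were high, so their direction is no test. Tacr3, the neurokinin 3 receptor of MCH neurons, lay at 5.01, 0, 10.8 and 0 CPM in Hcrt neurons against 129 to 258 CPM (log2 -5.37, SE 0.43). Igf1, a growth factor, lay at 0, 5.48, 0 and 0 CPM against 126 to 265 CPM (-6.92, SE 0.47). Ccbe1, a secreted matrix protein, had no UMI in Hcrt neurons and 108 to 186 CPM in MCH neurons, at least 37.8-fold lower. The 2 classes did not overlap in these 3 genes. Igf1 and Ccbe1 too passed the filter on counts only through MCH neurons, so their direction is no test. Lower than MCH neurons of the same library in each library, a looser condition, were 16.3% of genes. Alk, a receptor tyrosine kinase, lay at 95.2, 16.4, 108 and 60.2 CPM against 707 to 1002 CPM (-3.69, SE 0.25), and Kctd8, an auxiliary subunit of GABA-B receptors, at 5.01, 43.8, 10.8 and 25.8 CPM against 353 to 501 CPM (-4.34, SE 0.29). Dach2 (-5.11), Sfta3-ps (-5.11), Abtb2 (-4.64), A430090L17Rik (-4.37, on the other strand of Arl15), Sntg2 (-4.11), Lef1 (-3.74) and Gm38505 (-3.73) completed the 12. The 24 genes passed in each alternative fit that tested them, 11 or 12 per gene.

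The 2 peptide cell types differed in the levels of their convertases. Pcsk1 passed the filter on counts only through Hcrt neurons, so its direction is no test, while Pcsk2 was well counted in both classes. Pcsk1 lay at 567 to 678 CPM in Hcrt neurons and 21.5 to 24.8 CPM in MCH neurons, while Pcsk2 lay at 449 to 591 CPM in Hcrt neurons and 1849 to 2278 CPM in MCH neurons (log2 -2.03, SE 0.14, adjusted p = 1.92e-09 by edgeR). In other neurons Pcsk2 was at 413 to 466 CPM, near its level in Hcrt neurons. Of 18 processing genes tested 6 rose and 5 fell against MCH neurons (median 0.02). Scg2 (2.48) and Pam (1.07) were higher in Hcrt neurons, and Cadps2 (-2.11) and Chga (-1.07) lower, the last lost with DESeq2 (adjusted p = 0.110, range 0.00364 to 0.110). Cartpt (log2 -2.94, SE 0.32) and Gad1 (-2.10, SE 0.44) fell, the latter lost with DESeq2 (adjusted p = 0.0649, range 7.23e-08 to 0.0649). Slc17a6 rose by 0.75 (SE 0.22) and was lost without vehicle 1 (0.0927) and ImP 4 (0.123), range 0.0132 to 0.285. Gad2 did not pass (-0.72, adjusted p = 0.245).

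For some genes that rose against other neurons no difference from MCH neurons was detected. Kcnc2 lay at 757 to 1164 CPM in MCH neurons (log2 -0.03, SE 0.14) and Gabra2 at 613 to 1173 CPM (0.12, SE 0.17), so neither difference was larger than its error, and both genes overlapped between the classes. Htr2c lay at 1044, 534, 752 and 512 CPM in MCH neurons and was still higher in Hcrt neurons (0.82, SE 0.16, adjusted p = 6.86e-04 by edgeR). Of 30 glutamate, GABA and glycine receptors tested 5 rose and 14 fell against MCH neurons (median -0.35), with Grin2a (-2.28) and Gabrb2 (-2.14) again lower. Trhr rose by 3.28 (SE 0.48), Foxp2 by 2.71 (SE 0.22) and Plagl1 by 3.36 (SE 0.34). Of genes that fell against other neurons, Chrm3 (-0.34, SE 0.27) and Oprm1 (-0.47, SE 0.39) did not pass against MCH neurons, while Chrm2 did (-1.91, SE 0.25). Of 30 channel genes 3 rose and 7 fell (median -0.21), shares close to the 10.5% of all genes that rose and above the 10.5% that fell, and of 9 ImP signalling genes tested none passed.

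Whether ImP altered Hcrt neurons was asked first of their number. Hcrt neurons made up 0.304%, 0.259%, 0.295% and 0.369% of the nuclei with 3 or more Snhg11 UMIs (8541, 10407, 11530 and 12470 nuclei). Exact binomial limits at 95%, which cover counting error only, were 0.199% and 0.446% for vehicle 1, 0.171% and 0.377% for vehicle 2, 0.204% and 0.412% for ImP 3, and 0.270% and 0.492% for ImP 4. The groups overlapped, and ImP was higher by 0.05 percentage points on average (0.332% against 0.282%, exact permutation p = 0.667, two-sided, where 2 against 2 libraries cannot go below 0.33). With at least 10 Hcrt UMIs the shares were 0.234%, 0.231%, 0.260% and 0.265%, both ImP libraries higher (exact permutation p = 0.33). Fewer neurons and less Hcrt RNA per neuron cannot be told apart here, since the count of Hcrt UMIs makes the class.

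Most Hcrt molecules lay outside the Hcrt neurons. Members held 18.5%, 16.8%, 12.7% and 13.1% of the Hcrt UMIs of all kept nuclei, 636, 635, 800 and 1036 UMIs. Hcrt over all kept nuclei lay at 72.3, 78.0, 129 and 154 CPM, 1.88 times higher in ImP, and without the members at 59.2, 65.1, 113 and 134 CPM, 1.99 times higher. The part that the members supplied was 13.4, 13.1, 16.4 and 20.2 CPM, 1.38 times higher. Both ImP libraries lay above both vehicle libraries in these 3 levels and below them in the members' share of Hcrt UMIs. For each of the 4 quantities the exact permutation p of 0.33 is the smallest that the design allows. In oligodendrocyte-rich nuclei Hcrt lay at 172, 139, 290 and 285 CPM. The higher level of Hcrt in the sum of all nuclei thus lay mainly in nuclei that did not meet the rule.

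Within Hcrt neurons no gene passed the test of ImP against vehicle. Of 4005 genes tested 0 passed (0%) by edgeR and 0 by DESeq2, with 138 (3.45%) and 9 at an unadjusted p under 0.05. In simulated counts of the same depth 39.8% of genes changed 2-fold and 87.9% of those changed 4-fold were recovered, so changes of 2-fold could be missed. The simulation gave every gene the same set dispersion, not fitted to these data, and changed only better-counted genes. Recovery in the real sums may be lower. The oxytocin gene Oxt had the smallest p, at 85.2, 104, 215 and 339 CPM (log2 1.55, SE 0.33, adjusted p = 0.423), followed by Avp, the vasopressin gene, at 100, 132, 215 and 400 CPM (1.41, SE 0.33, adjusted p = 0.627). Both ImP libraries lay above both vehicle libraries in these genes, as for 16.5% of all genes. Oxt lay at 117, 179, 248 and 308 CPM in other neurons and at 271, 401, 537 and 636 CPM in oligodendrocyte-rich nuclei, in the same order of libraries. Oxt and Avp passed without ImP 3 (adjusted p = 0.00176 for each) and not without any other library. They also passed with a block on the number that opens the library name, whose meaning is not given (0.00394 for Oxt and 0.00568 for Avp), and with no filter on low counts (0.0218 and 0.0451), with ranges up to 1.00 over 12 alternatives. Over the same 12 the log2 fold change ran from 0.84 to 1.83 for Oxt and from 0.86 to 1.77 for Avp. Without ImP 3 the log2 fold change of Oxt was 1.83 and that of Avp 1.77, and 6 genes passed, the others being the pituitary genes Cga, Gh, Pomc and Prl, which were high in ImP 4.

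The next genes were taken by p among those at 50 CPM or more with both ImP libraries on 1 side of both vehicle libraries. Their adjusted p by edgeR was 0.9998. Higher in both ImP libraries were Ptgds, a prostaglandin synthase of meninges and glia (70.1, 82.2, 183 and 206 CPM, log2 1.34), Dbi (1.41), Deptor and Sec11c, a signal peptidase subunit (1.5). Ptgds lay at 84.2, 135, 217 and 325 CPM in other neurons, with the same order. Deptor, an inhibitor of mTOR kinase, lay at 45.1, 38.4, 135 and 90.2 CPM in Hcrt neurons (1.37, SE 0.44) but at 28.9, 31.1, 28.2 and 32.9 CPM in other neurons. Lower in both ImP libraries were Mgat4c, a sugar transferase, at 361, 674, 232 and 288 CPM (-1.0, SE 0.29), Npc1, a cholesterol transporter, at 75.2, 65.8, 26.9 and 12.9 CPM (-1.86, SE 0.61), Oprm1 (-1.61, SE 0.56), Edil3 at 576, 592, 323 and 408 CPM (-0.69, SE 0.24), Prpf4b (-0.92) and Xrcc5 (-1.37). As many as 14% of all genes lay lower in both ImP libraries. Of these genes Mgat4c passed with the block on library names (-0.99, adjusted p = 0.0302) and without vehicle 1 (-1.40, adjusted p = 0.0117), where Dpp10 (-1.61) and the pituitary genes Cga, Gh and Prl passed too. Without ImP 4, Rbfox1 passed alone (-1.73, adjusted p = 0.00975), at 371, 1063, 221 and 804 CPM, so that each ImP library lay beside a vehicle library. Dpp10 and Rbfox1 are named after their values were seen. Over 12 alternatives the log2 fold change of Mgat4c ran from -1.40 to -0.37.

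**Figure D5:**
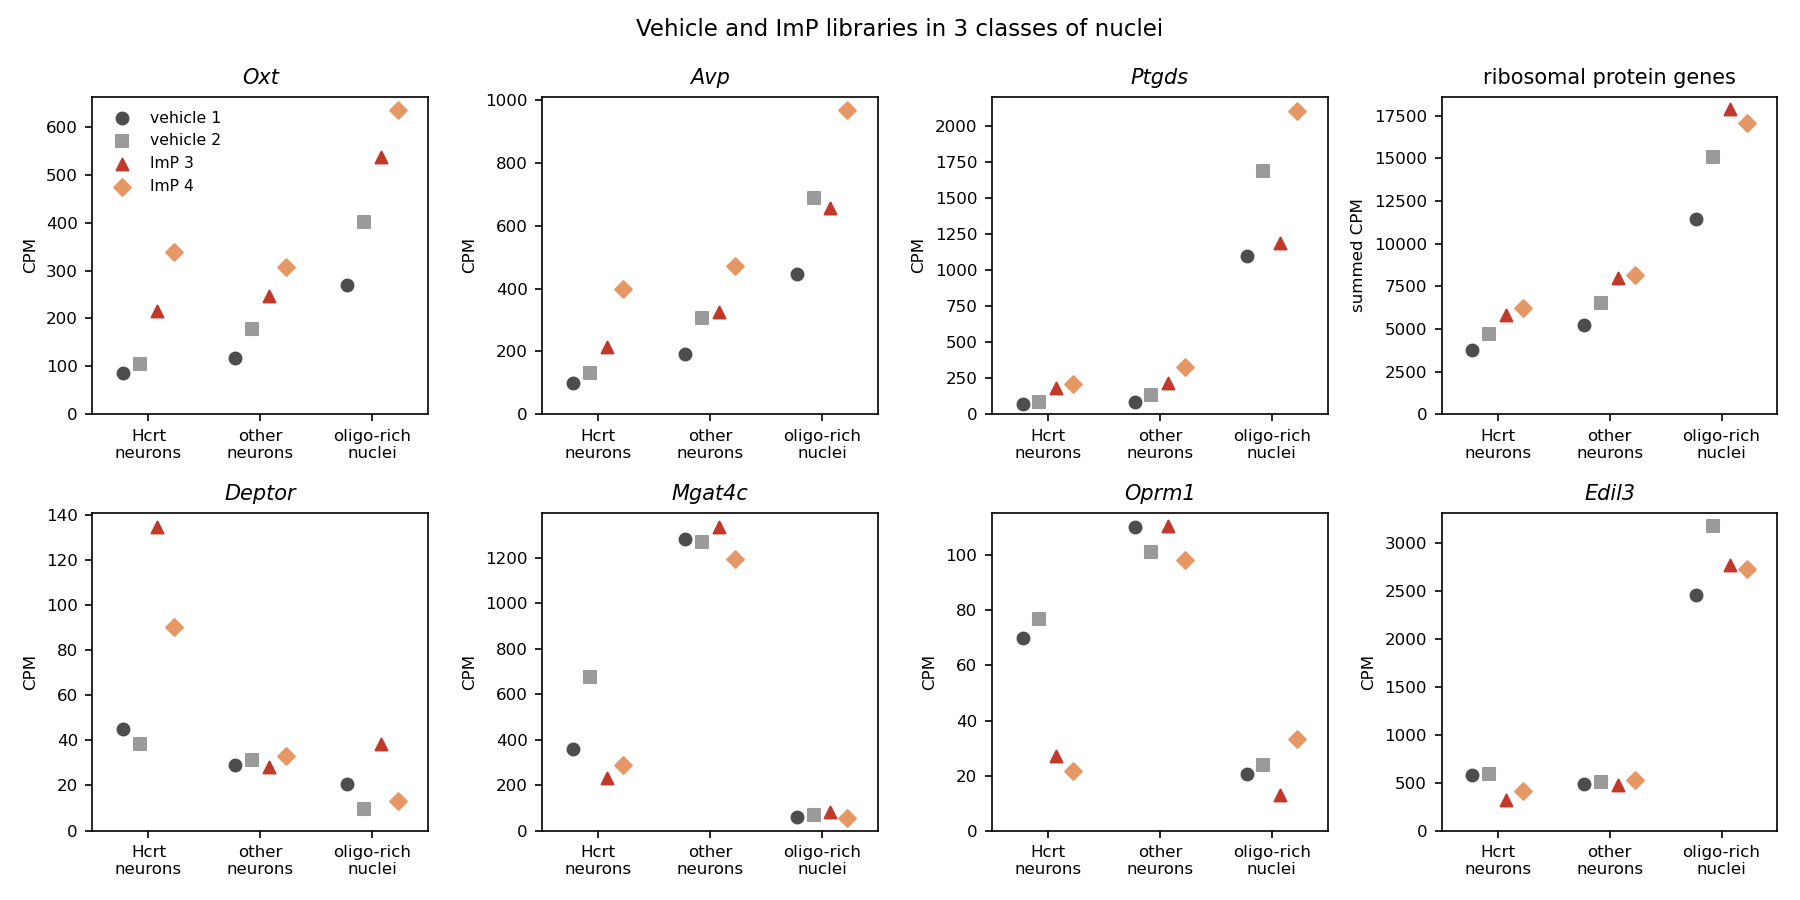
Level in CPM by library in Hcrt neurons, other neurons and oligodendrocyte-rich nuclei for Oxt, Avp, Ptgds, the summed ribosomal protein genes, Deptor, Mgat4c, Oprm1 and Edil3. Oxt and the ribosomal sum are higher in both ImP libraries in all 3 classes, whereas Deptor is higher in ImP in Hcrt neurons, at 135 and 90.2 CPM, and near 30 CPM in other neurons of all libraries.

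As groups, genes known from orexin neurons had fold changes near 0 between vehicle and ImP. The 7 that were tested had a median log2 fold change of -0.01, with 0 of 7 higher in both ImP libraries. The 15 processing genes (median 0.05), 29 glutamate, GABA and glycine receptors (-0.03), 26 channel genes (-0.05), 9 transcription factors (0.09) and 9 ImP signalling genes (0.15) likewise lay near the median of all genes, 0.00. Ribosomal protein genes stood higher, with a median of 0.51 over 50 tested genes and 32 of 50 higher in both ImP libraries against 16.5% of all genes, and 0 passed. Nuclear respiratory chain genes had a median of 0.38 over 20 tested, with 7 higher in both ImP libraries, and their sum was 1.28 times higher in ImP in Hcrt neurons and 1.29 times in other neurons. Astrocyte markers summed to 10.0, 38.4, 48.5 and 120 CPM in Hcrt neurons, on 2 to 28 UMIs, and oligodendrocyte markers to 105, 219, 188 and 314 CPM, where the groups overlapped. A higher level of ribosomal and respiratory genes in ImP neurons was known from earlier results of these data and is no independent observation. The summed level of ribosomal genes was 3768, 4686, 5804 and 6205 CPM in Hcrt neurons (1.42 times higher in ImP), 5203, 6495, 7997 and 8188 CPM in other neurons (1.38 times), and 11452, 15094, 17915 and 17094 CPM in oligodendrocyte-rich nuclei (1.32 times). The part of free RNA and of the lower depth of the ImP libraries in this was not tested.

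The effect of ImP in Hcrt neurons was also compared with that in other neurons, as a difference of log2 fold changes with the library as a block. Of 19233 genes tested 0 passed (0%) by edgeR and 0 by DESeq2, with 468 (2.43%) and 136 at an unadjusted p under 0.05, so no effect of ImP particular to Hcrt neurons was shown. Genes at a mean of 50 CPM or more in Hcrt neurons of vehicle or ImP were ranked by p. The smallest p values among them belonged to Tafa2, at 10.0, 16.4, 26.9 and 90.2 CPM in Hcrt neurons (difference 2.15, SE 0.62), Ccnyl1 (2.35), Fbxo42 (1.37), Deptor (1.33, SE 0.47) and Slc37a1 (2.02) among genes with the higher change in Hcrt neurons. On the other side were Mgat4c (-0.97), Npc1 (-1.95), Oprm1 (-1.63), Edil3 (-0.74), Stt3a (-1.71) and Tm2d1 (-1.39). Pomc, with no UMI in Hcrt neurons of vehicle and 16.2 and 116 CPM in ImP, has no fold. For Mgat4c the level in other neurons was 1281, 1271, 1334 and 1194 CPM and for Oprm1 98.4 to 111 CPM, with little spread. Without vehicle 1 the gene Dpp10 passed, and without vehicle 2 Il1rapl2 and Kctd16 passed, named after their values were seen.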

How the data were processed

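Single-nucleus RNA of 4 hypothalamus libraries was analysed from whole-number UMI counts per gene and barcode, which the authors deposited; the submitters' processing notes name Cell Ranger 8.0.1, Seurat 5.0.0 and build GRCm39. The sources used here do not name the handling of introns or strand. Among 33696 listed genes 26 symbols stand for more than 1 identifier. Nuclei with under 500 genes or over 5% mitochondrially encoded UMIs were left out, and classes were taken by thresholds on single genes with no clustering. Oligodendrocyte-rich nuclei held under 3 Snhg11 UMIs and at least 1% of their UMIs in 6 oligodendrocyte markers. Class sums held 199594, 182449, 185731 and 232717 UMIs in Hcrt neurons.

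Sums were tested with edgeR 4.0.16 (R 4.3.3, TMM, minimum count 10 in filterByExpr) and DESeq2 1.42.0 as an alternative. Standard errors were taken from the test statistic. Shares were compared by exact permutation with scipy 1.17.1. On simulated data 85.0% and 83.5% of 2-fold changes were recovered against other and MCH neurons. Dispersion was set there, not fitted to these data, and only better-counted genes were changed. For class comparisons the 12 genes with the largest change each way past 0.05, at 50 CPM or more on the higher side and on 1 side in all libraries were named. For ImP the 6 genes with the smallest p each way among those at 50 CPM or more were named. In ImP against vehicle both ImP libraries also had to lie on 1 side of both vehicle libraries. List members and key genes were named as well. The members, gene lists and rules were chosen with earlier results of these data known. Alternatives on depth and on a 50 CPM filter were chosen after seeing the data. A few genes within the rule and lists are not reported here by name.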

Additional observations from a re-analysis of the deposited data

How the results depend on the processing

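The counts of genes past the threshold stayed within 1.5 times the reported ones, or the difference in share kept its sign, in 48 of 60 alternatives. Against other neurons the count was 1259 of 3977 genes at 50 CPM or more on average, and 972 of 3951 with other neurons thinned to equal depth, both chosen after seeing the data and with fewer genes tested. Leaving out 1 library gave 1445 to 1687. Against MCH neurons DESeq2 called 529, and leaving out 1 library gave 744 to 972. For ImP in Hcrt neurons the count was 7 with no filter on low counts (Avp, Cga, Gh, Oxt, Pomc and Prl higher, Zfand2a lower) and 0 to 6 without 1 library. With a replicate block on the number that opens the library name, whose meaning the labels do not give and which is no pairing stated by the study, it was 3 (Oxt, Avp and Mgat4c). For the difference between classes it was 1 with at least 10 Hcrt UMIs (Dpp10), 2 with at least 2000 CPM of Hcrt (Il1rapl2 and Rbfox1) and 0 to 2 without 1 library. The cause was not tested. The difference in the share of Hcrt neurons lay between 0.0130 and 0.0909 percentage points in the 9 alternatives. Against MCH neurons the sign of 5 log2 fold changes moved, none of which passed in any fit. With at least 10 UMIs Nr3c1 was 0.20, Gal 0.36, Gabra2 -0.13 and Avp 0.39. With at least 2000 CPM Nr3c1 was 0.12 and Kcnc2 0.066. With at least 4000 UMIs per nucleus Nr3c1 was 0.16, Gabra2 -0.016 and Avp 0.25. Without 1 library Gal ranged from -0.51 to 0.22, Gabra2 from -0.029 to 0.37, Kcnc2 from -0.17 to 0.067 and Avp from -0.27 to 0.015. Of other gene values 2675 kept their side of the threshold, 149 fell short of it, 15 came to pass it and 18 counts by direction moved.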
